A study of Homo sapiens with 6 samples.

Results

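The 41 genes described here encode the enzymes and transporters of glycolysis and a set of transcripts known to respond to low oxygen, and they were taken as a list of gene IDs out of the 54532 IDs in each deposited file. All 41 IDs were found in the files. The files hold IDs only, so the symbols are Ensembl's mouse names for these IDs, supplied with the list. RNA sequencing had been done on 6 libraries, 2 in each of the groups titled NC, sh1 and sh4. Per the labels, all are A549 libraries, A549 being an established line from a human lung adenocarcinoma, and the series sets knockdown cells of a gene written DSTY against NC cells. What NC, sh1 and sh4 stand for is not written in the labels, which also give no vector, clone, medium, oxygen level, time or batch. Reading sh1 and sh4 as 2 knockdown groups is an assumption from the title. The targeted gene was not analysed here.

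The IDs go against the labels. All 54532 begin with the mouse prefix ENSMUSG, 0 begin with the human prefix ENSG, and 0 were found in the human gene tables used here, although the labels name human cells. The organism of the RNA is therefore unresolved. For the same reason the identity of the cells was not checked against marker genes, and no coordinates, promoters or protein sequences are given. Nothing in the labels says whether the libraries of a group came from separate cultures, so p-values measure only the spread between these libraries, which may be technical.

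Glycolysis splits glucose into pyruvate in the cytosol. Glucose enters through facilitative transporters, is trapped by hexokinase, and passes through the committed phosphofructokinase step before the lower enzymes recover ATP, and lactate dehydrogenase with the monocarboxylate transporters then disposes of the product as lactate. Tumour cells often run this route even with oxygen present. Low oxygen raises it further through hypoxia-inducible factor (HIF), whose alpha subunit is marked for destruction by prolyl hydroxylases of the Egln family while oxygen is available, and which otherwise activates glycolytic genes, angiogenic factors and its own hydroxylases.

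Values are FPKM, fragment counts divided by gene length and by a scale for each library. Division by length allows levels of different genes to be set side by side. Of the 41 members, 38 reached 1 FPKM in at least 2 libraries and were tested, and these 38 were in fact at 1 FPKM or more in all 6 libraries. Their levels ran from 1.46 to 782.4 FPKM. Whole reads could be recovered from the values, between 14999785 and 18011797 per library, and no tested member had fewer than 40 reads in a library. Differences are given on the log2(FPKM + 1) scale with their standard error (SE), which understates changes of low genes. A call is a Benjamini-Hochberg adjusted p below 0.05 over all 12755 IDs tested in limma's moderated test, n = 2 against 2 with the spread shared over the 6 libraries. In bulk RNA, fewer cells of a kind and less RNA per cell cannot be told apart.

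**Figure D1:**
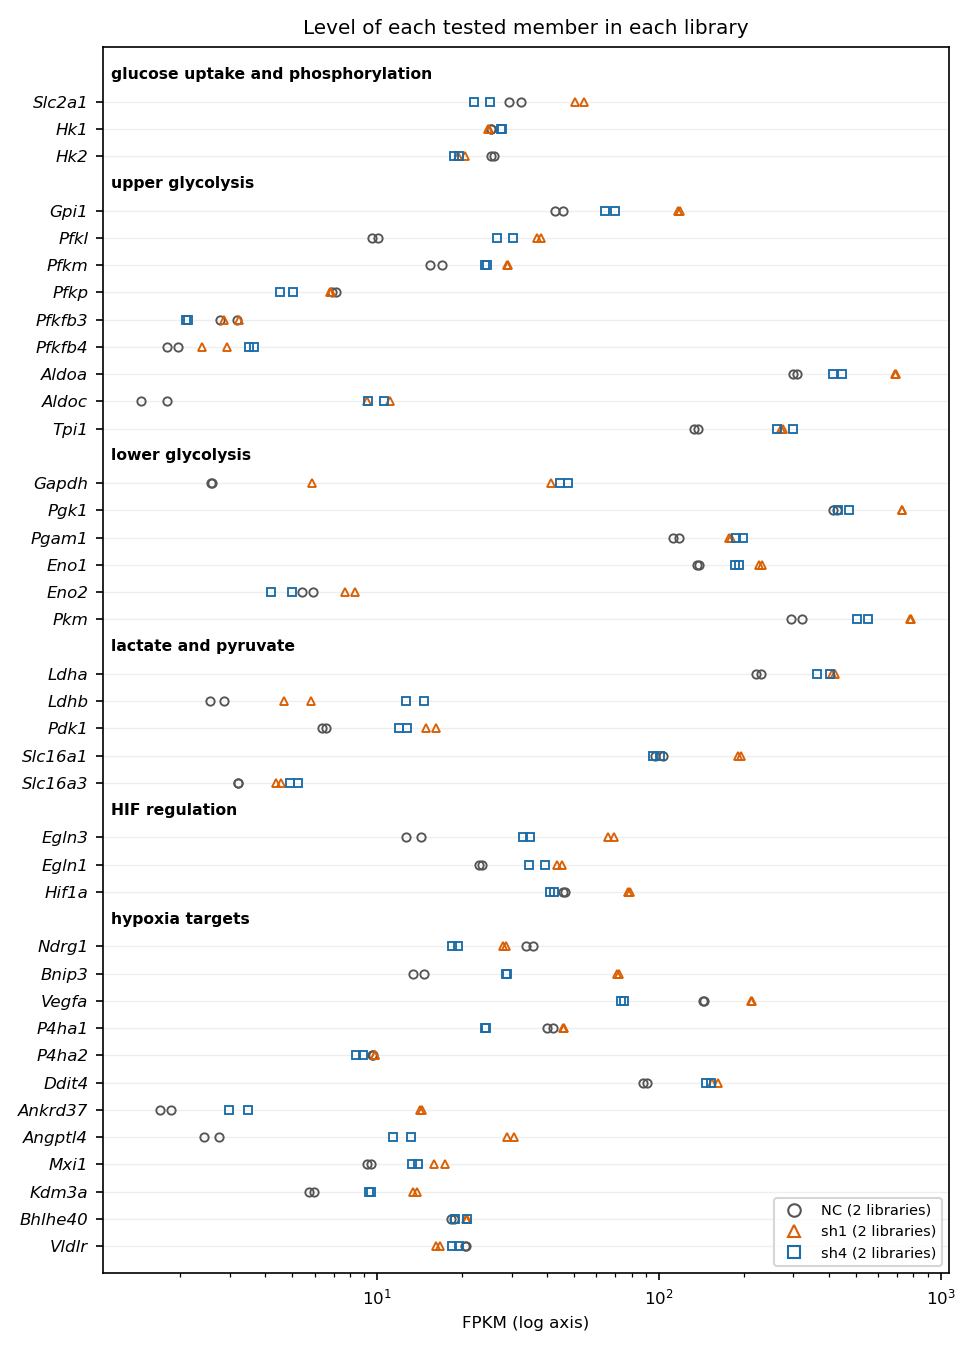
FPKM of the 38 tested members in each of the 6 libraries on a log axis, ordered by role, with circles for NC, triangles for sh1 and squares for sh4. Replicates lie close together for every member except Gapdh, whose sh1 libraries are at 5.89 and 41.3 FPKM, and most glycolytic enzymes have both sh1 libraries to the right of both NC libraries.

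In sh1, 30 of the 38 tested members rose against NC and 3 fell. Among all IDs tested, 32.4% rose and 33.2% fell, so that 65.5% were called in this comparison. The members' median log2 difference was 0.78, against -0.01 over all IDs, and 12 members rose by at least 1 log2 unit, where 5.67% of all IDs did. No member fell that far, against 4.29% of all IDs. Differences of at least 0.58 were called for 24 members in sh1, with adjusted p of at most 5.5e-05 (limma). The share of all IDs past that cut was not counted, so this count has no background.

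In sh4, 24 of the 38 rose against NC and 10 fell. The background was again high, with 35% of all IDs higher and 33.2% lower, or 68.2% called. The median log2 difference of the members was 0.55, against 0.01 over all IDs. A rise of at least 1 log2 unit was called for 7 members and for 5.9% of all IDs, and a fall of that size for 0 members and 4.2% of all IDs. Both comparisons use the same 2 NC libraries, so they are not independent, and their values are set side by side below. Differences of at least 0.58 were called in sh4 for 20 members besides Gapdh, with adjusted p of at most 0.000113 (limma). The share of all IDs past that cut was not counted in sh4 either. Without Gapdh, whose sh1 replicates disagree, the counts are 30 and 3 of 37 in sh1 and 23 and 10 of 37 in sh4. Called rises of at least 1 log2 unit then number 12 in sh1 and 6 in sh4.

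**Figure D2:**
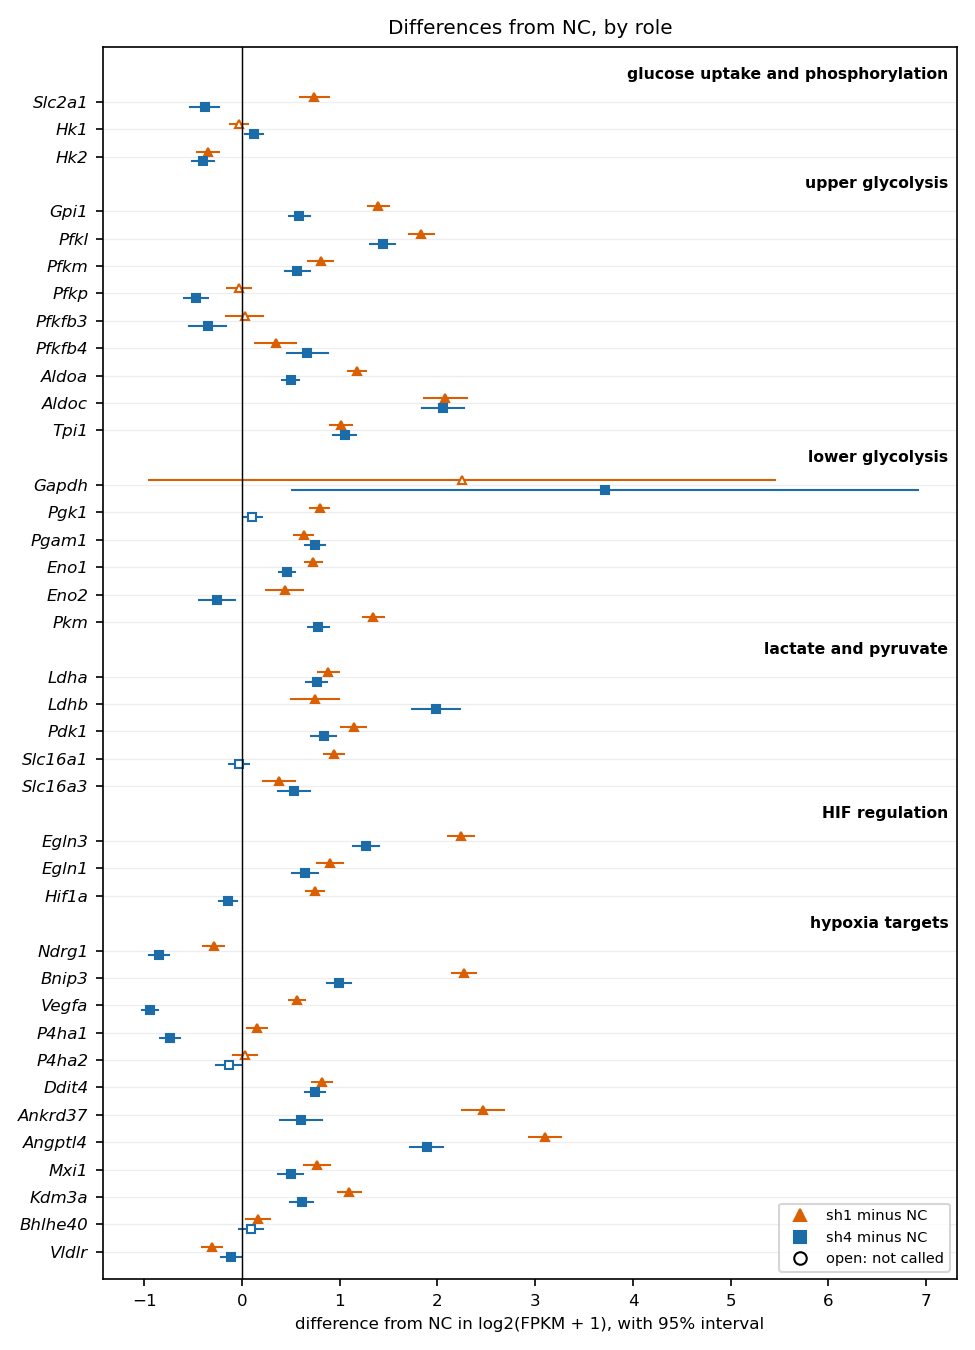
Difference from NC in log2(FPKM + 1) for sh1 (triangles) and sh4 (squares) with 95% intervals from the limma fit, for the 38 tested members by role. Filled symbols passed the test and open symbols did not. Most symbols lie to the right of zero, and Slc2a1, Eno2, Vegfa, P4ha1 and Hif1a have sh1 on the right and sh4 on the left, both filled. Pfkfb3, Slc16a1 and P4ha2 also lie on both sides in that order, but without both symbols filled.

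Of the 3 tested members of the entry steps, 1 rose and 1 fell in sh1, and 1 rose and 2 fell in sh4. Among all IDs, 32.4% rose and 33.2% fell in sh1, and 35% rose and 33.2% fell in sh4. The sh1 counts are near these shares, and 3 members are too few to be read as a set. The same shares of all IDs stand beside the role counts below. Slc2a1 (ENSMUSG00000028645), the widespread glucose transporter GLUT1, measured 32.4 and 29.4 FPKM in NC, 50.3 and 54.1 in sh1, and 25.2 and 22.0 in sh4. It stood highest in sh1 and lowest in sh4, with no overlap of any group, and differed from NC by 0.74 (SE 0.068) in sh1 and -0.38 (SE 0.068) in sh4. Hexokinase 1, the housekeeping form, was nearly level at 25.4 and 25.3 FPKM in NC, 24.7 and 24.9 in sh1, and 27.8 and 27.4 in sh4. Its sh4 libraries lay above the rest, a rise of 0.12 (SE 0.042) with adjusted p = 0.0234 by limma, and sh1 differed from NC by -0.03 (SE 0.042), with a 95% interval from -0.12 to 0.06. Hexokinase 2, the inducible form linked to tumour glycolysis, went down in both groups, with NC libraries at 26.0 and 25.2 FPKM, sh1 libraries at 20.4 and 19.4 and sh4 libraries at 18.8 and 19.5. These are falls of 0.35 and 0.40 on the log2 scale (SE 0.050). The call for Hk1 in sh4 was lost without either NC library or without sh4 replicate 1 (adjusted p = 0.0727, 0.0872 and 0.0546 by limma).

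Most enzymes between glucose-6-phosphate and the trioses were higher in both knockdown groups. Of 9 members in upper glycolysis, 7 rose in sh1 with 0 falls, and 7 rose and 2 fell in sh4. Gpi1 (ENSMUSG00000036427), which turns glucose-6-phosphate into fructose-6-phosphate, measured 45.8 and 42.7 FPKM in NC, 119 and 116 in sh1, and 69.7 and 64.3 in sh4. The sh4 libraries sat between NC and sh1 without touching either, and the differences from NC were 1.39 (SE 0.049) in sh1 and 0.59 (SE 0.049) in sh4.

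The phosphofructokinase genes behaved unequally. Pfkl (ENSMUSG00000020277), the liver-type subunit, measured 10.1 and 9.57 FPKM in NC, 36.9 and 38.2 in sh1, and 30.2 and 26.6 in sh4. The knockdown libraries were all far above NC, with rises of 1.83 (SE 0.058) in sh1 and 1.44 (SE 0.058) in sh4. Pfkm, the muscle-type subunit, measured 17.0 and 15.4 FPKM in NC, 29.2 and 28.8 in sh1, and 24.2 and 24.5 in sh4, a rise of 0.81 (SE 0.059) in sh1 and 0.56 (SE 0.059) in sh4. The platelet-type subunit Pfkp did not follow, at 7.12 and 6.89 FPKM in NC, 6.88 and 6.79 in sh1, and 5.04 and 4.53 in sh4. Its level fell in sh4 by 0.47 (SE 0.058), and in sh1 the difference was -0.03 (SE 0.058) with a 95% interval from -0.16 to 0.10.

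Pfkfb3 and Pfkfb4, the listed members of the bifunctional enzymes that set the phosphofructokinase activator fructose-2,6-bisphosphate, were low. Pfkfb4 measured 1.79 and 1.97 FPKM in NC, 2.92 and 2.40 in sh1, and 3.51 and 3.64 in sh4, with all 4 knockdown libraries above NC and rises of 0.34 (SE 0.096) and 0.67 (SE 0.096). The sh1 call for Pfkfb4 was lost without sh1 replicate 1 (0.24, adjusted p = 0.0931 by limma). Pfkfb3 stayed at 3.18 and 2.77 FPKM in NC and 3.25 and 2.85 in sh1, which overlap, and was 2.13 and 2.10 in sh4, a fall of 0.35 (SE 0.087).

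Aldolase cuts the phosphorylated hexose into trioses. Aldoa (ENSMUSG00000030695), the main form here, measured 310.1 and 299 FPKM in NC, 687 and 696 in sh1, and 445 and 415 in sh4. It rose by 1.18 (SE 0.042) in sh1 and by 0.50 (SE 0.042) in sh4, the sh4 libraries again lying between. Aldoc, the form known from brain, was at a small share of that level but changed more in proportion, at 1.46 and 1.80 FPKM in NC, 11.1 and 9.20 in sh1, and 10.6 and 9.27 in sh4. All 4 knockdown libraries were far above NC, with rises of 2.08 (SE 0.10) and 2.06 (SE 0.10). Tpi1, which interconverts the trioses, measured 137 and 133 FPKM in NC, 277 and 270.2 in sh1, and 299 and 263 in sh4. Its libraries in sh1 and sh4 overlapped each other and all exceeded NC, by 1.01 (SE 0.053) and 1.05 (SE 0.053). The largest adjusted p among the calls in this role was 0.00655 in sh1, for Pfkfb4, and 0.0028 in sh4, for Pfkfb3 (limma).

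Of the 6 members below the trioses, 5 rose and 0 fell in sh1, and 4 rose and 1 fell in sh4. Pkm (ENSMUSG00000032294), pyruvate kinase, was the most abundant member in sh1 and sh4 and measured 321 and 294 FPKM in NC, 782 and 780.4 in sh1, and 552 and 504 in sh4. Its differences from NC were 1.34 (SE 0.050) and 0.78 (SE 0.050), with 3 separate levels in the order NC, sh4, sh1. Pgk1, phosphoglycerate kinase, measured 427 and 414 FPKM in NC, 729 and 731 in sh1, and 473 and 432 in sh4. It rose in sh1 by 0.79 (SE 0.045). The sh4 libraries were a little above NC, by 0.10 (SE 0.045), adjusted p = 0.057 by limma. That value passed the threshold in 6 of the 13 alternatives run.

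Pgam1, phosphoglycerate mutase, measured 118 and 112 FPKM in NC, 180.2 and 177 in sh1, and 199 and 188 in sh4, rising by 0.63 (SE 0.046) in sh1 and 0.74 (SE 0.046) in sh4. Eno1, the ubiquitous enolase, measured 139 and 136 FPKM in NC, 231 and 226 in sh1, and 193 and 186 in sh4, with rises of 0.73 (SE 0.039) and 0.46 (SE 0.039). In both genes each knockdown library exceeded each NC library. Eno2, the neuronal enolase, was much lower at 5.92 and 5.41 FPKM in NC, 8.33 and 7.70 in sh1, and 4.97 and 4.19 in sh4. It rose in sh1 by 0.44 (SE 0.086) and fell in sh4 by 0.26 (SE 0.086, adjusted p = 0.017 by limma). The fall in sh4 was no longer called without NC replicate 1 (adjusted p = 0.108), without sh4 replicate 2 (adjusted p = 0.162) or with no filter (adjusted p = 0.101).

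Gapdh (ENSMUSG00000057666), the glyceraldehyde-3-phosphate dehydrogenase often used as a reference transcript, stood apart from its neighbours. It measured 2.57 and 2.59 FPKM in NC, 5.89 and 41.3 in sh1, and 44.6 and 47.5 in sh4, from 168 and 164 recovered reads in NC, 407 and 3007 in sh1, and 3406 and 3600 in sh4. The sh1 libraries thus disagreed: replicate 1 lay above NC but far below the rest, and replicate 2 lay just under the sh4 libraries. Every other enzyme of this role had its sh1 libraries close together. The spread is shared over all libraries, so the gap within sh1 also widens the SE for sh4, whose libraries lie close together. With all libraries, the difference from NC was 2.25 (SE 1.04) in sh1, not called, and 3.71 (SE 1.04) in sh4, adjusted p = 0.0499 by limma. Without sh1 replicate 1 the values were 3.56 (SE 0.069) and 3.71 (SE 0.057), and without sh1 replicate 2 they were 0.94 (SE 0.073) and 3.71 (SE 0.059), all of them called. The sh4 call was lost without any 1 library of NC or sh4 (adjusted p from 0.173 to 0.176 by limma), with the replicate block (adjusted p = 0.0806) and by voom (adjusted p = 0.141). Gapdh is known for many near-identical processed pseudogenes, as are several other glycolytic enzymes. How the authors assigned reads that match several copies is not given in the sources used here. Whether this bears on the Gapdh values was not tested, and the level of Gapdh is uncertain.

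**Figure D3:**
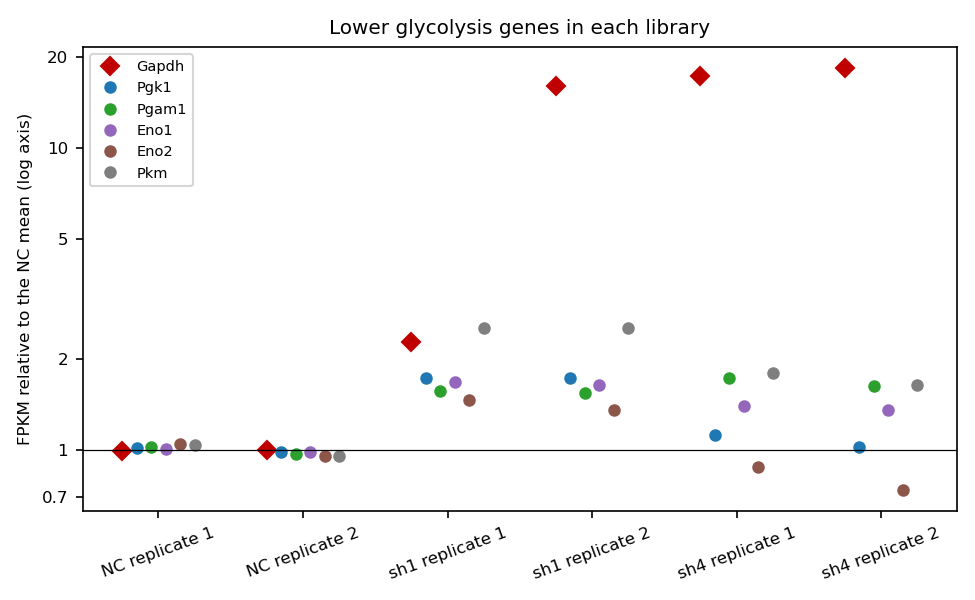
FPKM of the 6 lower glycolysis genes in each library divided by the gene's NC mean, on a log axis, with Gapdh as diamonds. Gapdh is far lower in sh1 replicate 1 (5.89 FPKM) than in sh1 replicate 2 (41.3 FPKM) and the sh4 libraries (44.6 and 47.5 FPKM), while the other genes give like values in both replicates of a group.

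At the branch from pyruvate to lactate, 5 of 5 members rose in sh1 and 4 of 5 in sh4. Ldha (ENSMUSG00000063229), the subunit that favours lactate formation, measured 231 and 221 FPKM in NC, 412 and 423 in sh1, and 406 and 362 in sh4. It rose by 0.88 (SE 0.051) and 0.76 (SE 0.051), with all knockdown libraries above NC. Ldhb, the subunit that favours the reverse reaction, was far lower at 2.54 and 2.87 FPKM in NC, 5.83 and 4.66 in sh1, and 14.7 and 12.7 in sh4. Here sh4 was the highest group, 1.98 (SE 0.11) above NC, and sh1 was between, 0.75 (SE 0.11) above NC. Ldhb rested on 63 and 69 reads in NC and 425 and 365 in sh4.

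Pdk1, the kinase that shuts off pyruvate dehydrogenase and a classical HIF target, measured 6.35 and 6.59 FPKM in NC, 16.1 and 14.8 in sh1, and 12.7 and 11.9 in sh4. It rose by 1.14 (SE 0.058) in sh1 and 0.83 (SE 0.058) in sh4. The lactate transporters parted. Slc16a1 (MCT1) measured 104 and 96.9 FPKM in NC, 190.1 and 196 in sh1, and 101 and 95.1 in sh4, a rise of 0.94 (SE 0.047) in sh1, while NC and sh4 overlapped with a difference of -0.03 (SE 0.047) and a 95% interval from -0.13 to 0.07. Slc16a3 (MCT4), the hypoxia-responsive exporter, measured 3.20 and 3.20 FPKM in NC, 4.56 and 4.37 in sh1, and 5.24 and 4.92 in sh4, with rises of 0.38 (SE 0.076) and 0.53 (SE 0.076).

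All 3 HIF regulators rose in sh1, and 2 rose and 1 fell in sh4. The transcript of the factor itself and those of its hydroxylases went separate ways in sh4. Hif1a (ENSMUSG00000021109) encodes the oxygen-regulated alpha subunit, which is controlled chiefly as a protein, so its transcript does not measure HIF activity. It measured 46.6 and 45.5 FPKM in NC, 77.4 and 78.8 in sh1, and 40.9 and 42.3 in sh4, a rise of 0.75 (SE 0.042) in sh1 and a fall of 0.14 (SE 0.042, adjusted p = 0.0087 by limma) in sh4. That fall was no longer called without NC replicate 1 (adjusted p = 0.0621) or with every library set to an equal FPKM sum (adjusted p = 0.127). Egln3 (ENSMUSG00000035105), the PHD3 hydroxylase and itself strongly induced by HIF, measured 14.3 and 12.7 FPKM in NC, 66.0 and 69.0 in sh1, and 34.8 and 32.8 in sh4. Its 3 levels were separate, sh1 exceeding NC by 2.24 (SE 0.062) and sh4 by 1.27 (SE 0.062). Egln1, the PHD2 hydroxylase that is the main oxygen sensor, measured 23.5 and 23.0 FPKM in NC, 45.4 and 43.3 in sh1, and 39.6 and 34.6 in sh4, rising by 0.90 (SE 0.061) and 0.65 (SE 0.061).

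Among the 12 tested hypoxia targets, 9 rose and 2 fell in sh1, and in sh4, 6 rose and 4 fell. In sh1 these are 75% and 16.7%, beside 32.4% and 33.2% of all IDs. In sh4 they are 50% and 33.3%, beside 35% and 33.2% of all IDs, so the share of falls in sh4 is that of the background. Angptl4 (ENSMUSG00000002289), a secreted inhibitor of lipoprotein lipase, changed most in sh1 and measured 2.74 and 2.42 FPKM in NC, 28.8 and 30.6 in sh1, and 13.2 and 11.4 in sh4. Its rises were 3.10 (SE 0.077) and 1.89 (SE 0.077). Ankrd37, a small ankyrin protein known as a HIF target, was low in NC, at 45 and 40 reads, and measured 1.85 and 1.69 FPKM in NC, 14.4 and 14.2 in sh1, and 3.48 and 2.97 in sh4. It rose by 2.46 (SE 0.099) in sh1 but by 0.61 (SE 0.099) in sh4. Bnip3 (ENSMUSG00000078566), a mitophagy receptor, measured 13.4 and 14.7 FPKM in NC, 71.1 and 72.2 in sh1, and 29.0 and 28.7 in sh4, rising by 2.27 (SE 0.057) and 0.99 (SE 0.057). In each of these genes the sh4 libraries lay between NC and sh1 without overlap.

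Kdm3a, a histone H3 lysine 9 demethylase, measured 5.98 and 5.71 FPKM in NC, 13.9 and 13.4 in sh1, and 9.37 and 9.51 in sh4 and rose by 1.10 (SE 0.054) and 0.61 (SE 0.054). Mxi1, an antagonist of Myc, measured 9.51 and 9.17 FPKM in NC, 15.9 and 17.4 in sh1, and 13.2 and 14.0 in sh4 and rose by 0.77 (SE 0.060) and 0.50 (SE 0.060). Ddit4 (REDD1), an inhibitor of mTORC1 that also answers to other stresses, measured 90.4 and 87.6 FPKM in NC, 162 and 154 in sh1, and 153 and 147 in sh4. Its sh1 and sh4 levels were near each other and above NC, by 0.82 (SE 0.046) and 0.75 (SE 0.046).

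Other targets went down in sh4, in a share near that of all IDs. Vegfa (ENSMUSG00000023951), the angiogenic growth factor, was the most abundant target in NC and sh1 and measured 143 and 145 FPKM in NC, 215 and 212 in sh1, and 75.4 and 73.5 in sh4. It rose in sh1 by 0.56 (SE 0.039) and fell in sh4 by 0.94 (SE 0.039), so that its sh4 level was about 0.517 of that in NC. P4ha1, a subunit of collagen prolyl 4-hydroxylase, measured 42.1 and 40.1 FPKM in NC, 46.1 and 45.6 in sh1, and 24.3 and 24.2 in sh4. It fell in sh4 by 0.74 (SE 0.047), and its small rise in sh1, 0.16 (SE 0.047), was lost in 5 of the 13 alternatives, among them the fits without NC replicate 2, sh1 replicate 1 or sh1 replicate 2 (adjusted p = 0.0941, 0.0768 and 0.0522 by limma). Ndrg1, a stress-responsive growth regulator, fell in both groups and measured 35.7 and 33.9 FPKM in NC, 27.9 and 28.7 in sh1, and 19.4 and 18.4 in sh4, by 0.29 in sh1 and 0.85 in sh4 (SE 0.049).

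The other targets differed by less than 0.58 log2 units in every comparison. Vldlr, the very low density lipoprotein receptor, fell by 0.31 in sh1 and 0.11 in sh4 (SE 0.047), and the sh4 call (adjusted p = 0.0469 by limma) was lost in 9 of the 13 alternatives, including every fit without 1 library except that without sh4 replicate 2 (adjusted p from 0.0748 to 0.222). Bhlhe40, a transcriptional repressor, ranged from 18.2 to 20.8 FPKM over all libraries. Its rise in sh1 of 0.16 (SE 0.057), adjusted p = 0.0245 by limma, was lost in 6 of the 13 alternatives, among them the fits without NC replicate 1, sh1 replicate 1 or sh1 replicate 2 (adjusted p = 0.113, 0.108 and 0.0914). Its sh4 difference of 0.09 (SE 0.057) was not called, and passed without sh4 replicate 2 (0.16, adjusted p = 0.0308). P4ha2 ranged from 8.39 to 9.84 FPKM and was called against NC in neither group, with differences of 0.03 (SE 0.059) in sh1 and -0.14 (SE 0.059) in sh4. The sh4 difference of P4ha2 passed without sh4 replicate 1 (-0.18, adjusted p = 0.0369 by limma) and with the replicate block (adjusted p = 0.0483).

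Set directly against sh1, sh4 had mostly lower levels. Of the 38 tested members, 25 were lower and 4 higher in sh4, beside 26.4% of all IDs lower and 29.5% higher, or 56% called. The median log2 difference of the members was -0.34, against 0.01 over all IDs. The split depends somewhat on scaling: 21 were lower and 7 higher once every library was rescaled to the same FPKM sum. The background moved too: of all 12755 IDs, 2394 were lower and 4859 higher under that scaling, against 3373 and 3766 without it. Only Ldhb was called higher by at least 1 log2 unit (Gapdh was past that size but not called), beside 3.32% of all IDs, and 5 members were lower by that much, beside 3.03% of all IDs. Of the 15 tested HIF regulators and hypoxia targets, 12 were lower in sh4 and 1 was higher, and of the 23 glucose and lactate genes, 13 were lower and 3 higher. Whether these shares differ between the roles was not tested.

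Among members lower in sh4, the 4 widest gaps were in hypoxia targets. Ankrd37 differed by -1.86 (SE 0.099), Vegfa by -1.50 (SE 0.039), Bnip3 by -1.28 (SE 0.057) and Angptl4 by -1.21 (SE 0.077). Next among the lower members came Slc2a1 at -1.12 (SE 0.068), Egln3 at -0.98 (SE 0.062) and Slc16a1 at -0.97 (SE 0.047). P4ha1 and Hif1a both differed by -0.89, with SE 0.047 and 0.042. Among the enzymes, the difference was -0.81 (SE 0.049) for Gpi1, -0.69 (SE 0.086) for Eno2, -0.69 (SE 0.045) for Pgk1 and -0.68 (SE 0.042) for Aldoa. Each of these 13 members had an adjusted p of at most 1.49e-05 (limma). The 4 members higher in sh4 were Ldhb by 1.23 (SE 0.11), Pfkfb4 by 0.33 (SE 0.096), Vldlr by 0.19 (SE 0.047) and Hk1 by 0.15 (SE 0.042). By limma, the call for Pfkfb4 was lost without sh1 replicate 2 (adjusted p = 0.131) or sh4 replicate 2 (adjusted p = 0.0622). Those for Hk1 and Vldlr were lost without sh1 replicate 1 (adjusted p = 0.0697 and 0.0512), and that for Hk1 also without sh1 replicate 2 (adjusted p = 0.0522).

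Several members gave no called difference between the groups. Aldoc differed by -0.02 (SE 0.10) with a 95% interval from -0.24 to 0.19, Tpi1 by 0.04 (SE 0.053) with an interval from -0.08 to 0.15, and Ddit4 by -0.07 (SE 0.046) with an interval from -0.17 to 0.03. Hk2 differed by -0.05 (SE 0.050) and Bhlhe40 by -0.06 (SE 0.057). Ldha at -0.12 (SE 0.051), Pgam1 at 0.11 (SE 0.046) and Slc16a3 at 0.15 (SE 0.076) were not called either, and each passed the threshold in some alternatives. Without sh4 replicate 2, Pgam1 (0.15, adjusted p = 0.0195) and Tpi1 (0.13, adjusted p = 0.0240) passed, as did Ldha without sh4 replicate 1 (-0.20, adjusted p = 0.00206 by limma). For Gapdh the value was 1.46 (SE 1.04), which became 0.15 (adjusted p = 0.0925 by limma) without sh1 replicate 1 and 2.77 (adjusted p = 3.06e-10) without sh1 replicate 2.

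**Figure D4:**
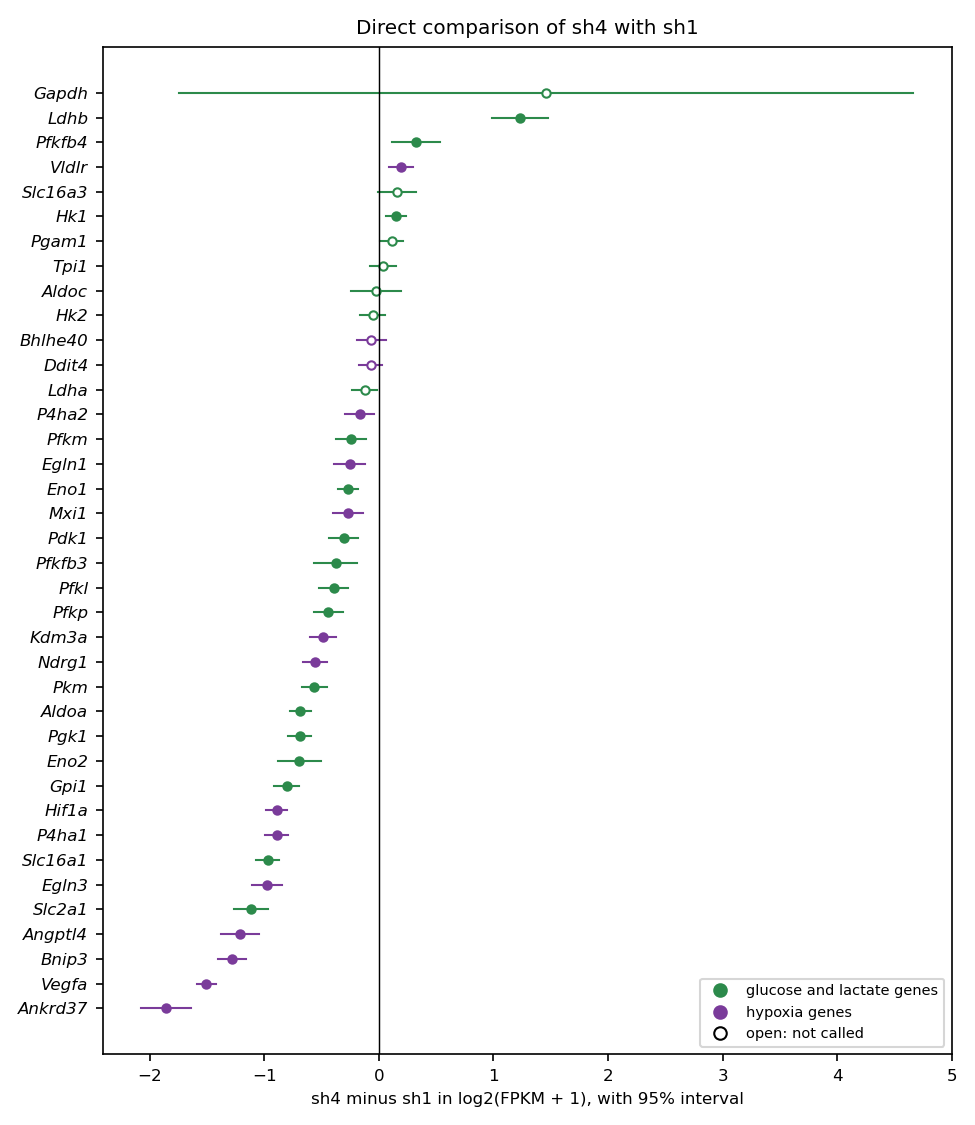
Difference of sh4 from sh1 in log2(FPKM + 1) with 95% intervals, for the 38 tested members in order of size, with hypoxia genes in purple and glucose and lactate genes in green. Filled symbols passed the test. The 4 lowest values belong to Ankrd37, Vegfa, Bnip3 and Angptl4, and the wide interval at the top is Gapdh.

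Since FPKM is per gene length, the members of an enzyme family can be read as shares of the family total. These shares are descriptions, since an exact permutation test of 2 against 2 libraries cannot pass the threshold. Pfkl made up 29.8% ± 0.43 of phosphofructokinase transcript in NC (mean ± SD, n = 2), 51.2% ± 0.86 in sh1 and 49.3% ± 2.2 in sh4. Pfkm was the leading form in NC at 49.0% ± 1.0 and the next after Pfkl in the other groups, at 39.5% ± 0.70 and 42.4% ± 2.4, and Pfkp shrank from 21.2% ± 0.58 to 9.31% ± 0.15 and 8.30% ± 0.24. The whole family stood at 33.0 ± 1.7 FPKM for NC, 73.4 ± 0.55 for sh1 and 57.6 ± 2.7 for sh4.

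Other families shifted as well. The share of Hk1 in hexokinase was 49.8% ± 0.42 in NC, 55.5% ± 1.1 in sh1 and 59.0% ± 0.89 in sh4. Pfkfb4 made up 38.8% ± 3.9 of its pair with Pfkfb3 in NC, 46.5% ± 1.2 in sh1 and 62.9% ± 0.85 in sh4, where it was the leading form. Egln3 was 36.7% ± 1.6 of its pair with Egln1 in NC, 60.3% ± 1.5 in sh1 and 47.7% ± 1.4 in sh4. In NC the hexokinases were nearly even, and Hk1 was just ahead in replicate 2. In the remaining families the leading form did not change. Ldhb was 1.19% ± 0.14 of lactate dehydrogenase in NC, 1.24% ± 0.22 in sh1 and 3.43% ± 0.077 in sh4, and Aldoc was 0.533% ± 0.093 of aldolase in NC, 1.45% ± 0.20 in sh1 and 2.25% ± 0.10 in sh4. The P4ha2 share was 19.0% ± 0.47 in NC, 17.6% ± 0.099 in sh1 and 26.3% ± 0.79 in sh4, which follows P4ha1.

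**Figure D5:**
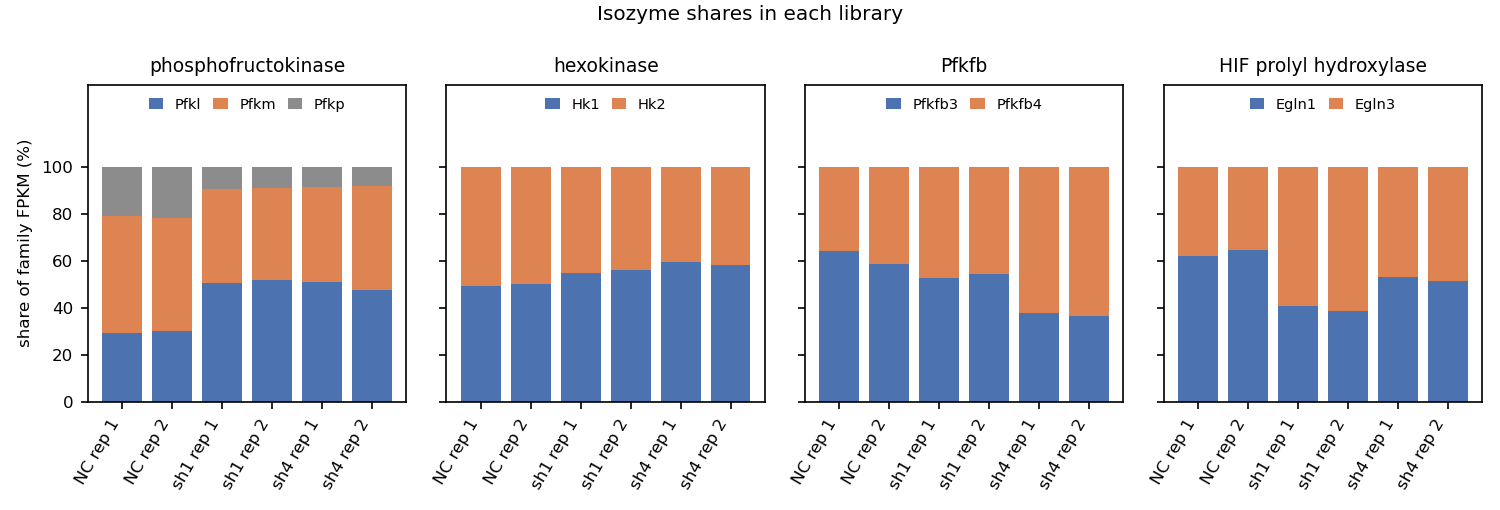
Share of the family's summed FPKM held by each member in each of the 6 libraries (stacked bars from 0 to 100%), for the 4 families in which the leading form differed between groups. Pfkl grows from 29.8% of its family with NC to 51.2% with sh1 and 49.3% with sh4.

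Summed over members, the 41 genes held 0.927% ± 0.029 (mean ± SD, n = 2) of the recovered reads of NC, against 1.70% ± 0.0050 for sh1 and 1.27% ± 0.051 for sh4. Upper glycolysis summed to 523 ± 15 FPKM for NC, 1172 ± 1.5 for sh1 and 851 ± 53 for sh4. For lower glycolysis the sums were 989 ± 36, 1951 ± 19 and 1414 ± 74 FPKM, of which Pkm and Pgk1 made up most. The lactate and pyruvate sum was 338 ± 11, 635.5 ± 9.8 and 513 ± 37 FPKM. Hypoxia targets summed to 392 ± 3.6 FPKM for NC, 639.6 ± 5.0 for sh1 and 384 ± 8.5 for sh4, where Vegfa and Ddit4 weigh most and moved in opposite directions in sh4. Glucose entry, the sum of Slc2a1, Slc2a3, Hk1 and Hk2, was 81.9 ± 2.7, 97.0 ± 2.0 and 70.4 ± 2.0 FPKM. The HIF regulators summed to 82.7 ± 2.3, 189.9 ± 1.6 and 112.5 ± 3.9 FPKM.

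Slc2a3, Car9 and Adm were under the filter. Slc2a3 (GLUT3) had between 0 and 10 reads per library. Car9, the membrane carbonic anhydrase widely used as a hypoxia marker, had 21 and 24 reads in NC, 17 and 24 in sh1, and 18 and 5 in sh4, which is 0.577 and 0.679, 0.442 and 0.591, and 0.423 and 0.118 FPKM. Adm (adrenomedullin), a vasodilator peptide, had 12 and 5 reads in NC, 30 and 24 in sh1, and 15 and 27 in sh4. With the filter removed, none of these 3 genes was called in any of the 3 comparisons, and the smallest adjusted p was 0.0697, for Adm in sh1 (limma). For Adm, both sh1 libraries lay above both NC libraries, with a ratio of mean FPKM of 2.91. On the log2(FPKM + 1) scale, which shrinks differences at such low levels, this was 0.57 (SE 0.17). The missing calls therefore do not show a lack of change.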

How the data were processed

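RNA was extracted with Trizol and sequenced by Illumina protocols, per the labels. No strand setting, counter or annotation is stated there. The authors deposited 1 table of FPKM per library, per the labels. HISAT2 2.0.5 and hg18 are named in the submitters' processing notes, with no role given. All gene IDs are of the mouse type, while hg18 is a human build. Whole reads were recovered from the FPKM: all 25747 IDs above 0 were rebuilt from whole reads, a length per ID and a scale per library within 1e-06 FPKM. The recovered scales follow median-of-ratios size factors, which the labels do not state.

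IDs with at least 1 FPKM in at least 2 libraries were kept (12755). Values were taken as log2(FPKM + 1) and fitted in limma 3.58.1 (R 4.3.3) over all 6 libraries, with 3 residual degrees of freedom, a robust variance trend on mean recovered reads and Benjamini-Hochberg adjustment over all IDs. The comparisons were sh1 with NC, sh4 with NC and sh4 with sh1. The code was tested on simulated data. The alternatives were 7 other settings and 6 fits that each left out 1 library. Leaving Gapdh out of the list, and leaving out libraries from the role sums, were added after seeing the data. The comparison of replicate differences for Gapdh, with its limits, was added then too.

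The members, lists and tests were chosen with earlier results of these data known. Values in every library are given for members called with a difference of at least 0.58, for the most abundant member of each role and for families whose order changed. Lists of other pathway genes and of cell type markers were not analysed here, since no table used here pairs these IDs with symbols.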

Additional observations from a re-analysis of the deposited data

Results flagged for a closer look

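For 5 members the groups moved in opposite directions from NC, higher in sh1 and lower in sh4, each past the threshold. Over all IDs, 32.4% were higher in sh1 and 33.2% were lower in sh4. The share of IDs with both was not counted, so these 5 members have no background to be set against. The direct comparison of sh4 with sh1 is the gap between the same differences from NC. It passed as well, which adds no separate support. The difference of sh4 from sh1 on the log2(FPKM + 1) scale was -1.12 for Slc2a1, the glucose transporter, and -0.69 for Eno2, the neuronal enolase. It was -1.50 for Vegfa, the angiogenic factor, -0.89 for P4ha1, the collagen hydroxylase subunit, and -0.89 for Hif1a. These direct differences were called in all 13 alternatives, with ranges of -1.21 to -0.998 for Slc2a1, -0.81 to -0.59 for Eno2, -1.52 to -1.38 for Vegfa, -0.92 to -0.77 for P4ha1 and -0.91 to -0.77 for Hif1a. For Slc2a1 and Vegfa the difference of each group from NC was called in all 13 as well. The small difference from NC was lost for Eno2 in sh4 in 3 alternatives, for Hif1a in sh4 in 2 and for P4ha1 in sh1 in 5. Groups of 2 libraries are too small for a check of single libraries that stand apart.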

How the results depend on the processing

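The count of called members stayed within 1.5 times its value in each comparison under every alternative run. Leaving out 1 library gave 31 to 33 in sh1, 29 to 34 in sh4 and 26 to 30 between sh4 and sh1. With the replicate number as a block, the counts were 33, 35 and 31. Across IDs, the differences between replicates correlated at -0.01 for NC with sh1, 0.12 for NC with sh4 and -0.02 for sh1 with sh4. Whether same-numbered libraries shared a batch was not tested, and the labels give none. Gapdh in sh4 lost its call with that block. Scaling to total reads or to the same FPKM sum moved the median of all IDs between sh4 and sh1 from 0.01 to 0.07 and 0.10 on the log2 scale. Members that changed sign were all uncalled, and the cause was not tested. With total-read scaling these were Pfkfb3 (-0.0196) and P4ha2 (-0.0256) in sh1, and Hk2 (0.0241), Aldoc (0.0489), Ddit4 (0.0111) and Bhlhe40 (0.0121) between sh4 and sh1. With the same FPKM sum they were Pfkfb3 (-0.0321) and P4ha2 (-0.0404) in sh1, Slc16a1 (0.0145) in sh4, and Hk2 (0.0642), Aldoc (0.0872), Ldha (0.00077), Ddit4 (0.0531) and Bhlhe40 (0.0523) between sh4 and sh1. Without 1 library, values ran from -0.0487 to 0.10 for Pfkfb3 in sh1 and from -0.0771 to 0.0173 for Slc16a1 in sh4. Between sh4 and sh1 they ran from -0.15 to 0.10 for Aldoc, from -0.0541 to 0.13 for Tpi1 and from -0.13 to 0.00047 for Bhlhe40. With 2 libraries a group and few reads, Slc2a3, Car9 and Adm were not called without the filter, which does not show a lack of change.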

Other observations

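The Gapdh values of the sh1 libraries, singled out after they were seen, were set beside other IDs of a mean of at least 5 FPKM in sh1. Replicate 2 exceeded replicate 1 by 2.62 on the log2(FPKM + 1) scale, rank 2 by absolute size among 7555 IDs, of which 15 differed by at least 1. Among the 7007 of these IDs with a recovered length of at least 1000 bp, only Gapdh did, and the next difference was 0.61. The limits of 5 FPKM and 1000 bp were also set after the Gapdh values were seen, so this is a description only. In NC, 25 of 7586 IDs differed by at least 1 between replicates, 3 of them among the 7025 long IDs, and in sh4 10 of 7588 did, 1 of them among the 7074 long IDs. The widest difference among the 34 other members at that level in sh1 was 0.27, for Ldhb.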
